A study of Homo sapiens with 30 samples.

Results

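The genes followed here are 10 subunits, inhibitors and regulators of NF-kB, chosen by name and found in the files as the probes that carry those names, 10 of 43972 gene names on the arrays. They are the subunit genes NFKB1, NFKB2, REL and RELB, the genes of the IkB proteins NFKBIA, NFKBIE and NFKBIZ, the genes TNFAIP3 and TNIP1 of the A20 complex, and BIRC3. The data are 30 one-colour arrays of BEAS-2B, an immortalised line of human bronchial epithelial cells grown at the air-liquid interface. For the exposed cells 10 mg of whole birch pollen was blown into a chamber and left to settle, and part of it was lost to the chamber. The other cells were handled in the same way behind a mesh that kept the pollen out, which the labels call air. RNA was taken after 10 min, 55 min, 2h25min, 6h50min and 24 h, with 3 arrays for each of the 10 groups. The question asked at each time was which transcripts differ between pollen and air.

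The cells are a single immortalised line and not primary epithelium. According to the methods the repetitions were run on different days, and the precision of each value rests on 3 arrays. In bulk RNA, a response of a few cells and a weaker response of all cells cannot be told apart. All 6 epithelial markers looked up (KRT5, KRT8, KRT18, KRT19, CDH1 and EPCAM) were well above background on all 30 arrays. Of 7 mesenchymal genes COL1A1, DCN, PDGFRB, VIM and CDH2 were so on all 30, COL1A2 on 27 and LUM on 0. Of the leukocyte genes PTPRC and CD14 were so on all 30, ITGAM on 28 and CD3E on 17, and of 3 endothelial genes CDH5 was so on all 30, VWF on 28 of the 29 arrays that carry it and PECAM1 on 0.

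NF-kB is a family of dimeric transcription factors that wait in the cytoplasm, bound by IkB proteins, until a kinase complex marks the IkB for destruction. The freed dimers enter the nucleus and switch on genes of inflammation and survival, and among these are the genes of their own subunits and of their own inhibitors. The pathway is known in airway epithelium as a main route by which cytokines and microbial products raise chemokine transcripts.

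The stretches of 250 bases before the RefSeq starts of the genes whose values are described most closely below are printed to show the regulatory sequence ahead of them. They were read from the RefSeq promoter table (build GRCh38.p14), which holds 8 of the 10 genes. NFKBIE and RELB have no entry there. TNFAIP3 is at chr6:137867009-137867258 on the plus strand, NFKBIA at chr14:35404750-35404999 on the minus strand, REL at chr2:60881324-60881573 on the plus strand and BIRC3 at chr11:102317234-102317483 on the plus strand. NFKBIZ has 2 starts in the table, at chr3:101827740-101827989 on the plus strand and chr3:101849264-101849513 on the plus strand. The upstream start of NFKB1 is at chr4:102501109-102501358 on the plus strand. Capitals mark matches to the kappa-B consensus, the motif bound by NF-kB dimers, on either strand. Adjoining and overlapping matches run together, so that the capitals of REL cover a pair of matches shifted by 1 base.
TNFAIP3: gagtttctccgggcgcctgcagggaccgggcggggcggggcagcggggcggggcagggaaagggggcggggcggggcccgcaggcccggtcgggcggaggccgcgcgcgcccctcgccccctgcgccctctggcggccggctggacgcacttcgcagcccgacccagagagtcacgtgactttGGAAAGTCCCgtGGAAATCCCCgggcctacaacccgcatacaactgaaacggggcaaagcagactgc
NFKBIA: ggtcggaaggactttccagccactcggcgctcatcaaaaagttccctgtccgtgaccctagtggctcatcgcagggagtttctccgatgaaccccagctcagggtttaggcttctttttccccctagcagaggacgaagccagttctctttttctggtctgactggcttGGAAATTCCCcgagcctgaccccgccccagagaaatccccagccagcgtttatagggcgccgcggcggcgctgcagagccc
NFKBIZ, upstream start: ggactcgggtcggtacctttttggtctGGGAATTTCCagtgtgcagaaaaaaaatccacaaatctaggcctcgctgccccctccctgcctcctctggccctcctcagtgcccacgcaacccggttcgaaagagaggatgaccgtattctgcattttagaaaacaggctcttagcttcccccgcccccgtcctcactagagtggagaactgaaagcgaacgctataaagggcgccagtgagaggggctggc
NFKBIZ, downstream start: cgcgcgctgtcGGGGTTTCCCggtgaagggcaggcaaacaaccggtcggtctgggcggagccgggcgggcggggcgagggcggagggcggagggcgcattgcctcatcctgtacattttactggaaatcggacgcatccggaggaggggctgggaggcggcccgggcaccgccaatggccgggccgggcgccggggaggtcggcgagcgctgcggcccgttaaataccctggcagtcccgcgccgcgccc
NFKB1, upstream start: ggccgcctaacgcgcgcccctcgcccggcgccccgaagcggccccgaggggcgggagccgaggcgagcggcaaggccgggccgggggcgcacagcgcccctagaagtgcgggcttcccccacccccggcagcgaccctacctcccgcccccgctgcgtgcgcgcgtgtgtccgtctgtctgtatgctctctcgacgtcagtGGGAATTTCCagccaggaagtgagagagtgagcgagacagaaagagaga
REL: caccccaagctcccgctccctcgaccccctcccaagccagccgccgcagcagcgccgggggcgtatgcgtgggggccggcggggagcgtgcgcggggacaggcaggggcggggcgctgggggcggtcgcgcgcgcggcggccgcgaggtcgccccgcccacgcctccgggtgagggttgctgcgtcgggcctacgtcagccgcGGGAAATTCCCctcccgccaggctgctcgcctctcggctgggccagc
BIRC3: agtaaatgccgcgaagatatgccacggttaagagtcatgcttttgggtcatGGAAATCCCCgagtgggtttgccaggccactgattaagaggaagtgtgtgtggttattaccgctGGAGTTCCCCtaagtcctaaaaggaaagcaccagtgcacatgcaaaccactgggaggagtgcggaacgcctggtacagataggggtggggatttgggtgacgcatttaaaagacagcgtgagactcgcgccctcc

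A match to the consensus was found before at least 1 start of each of the 8 genes, in 10 of their 13 windows. A match was in 5.21% of all 35116 windows of this length. The matches of TNFAIP3 began 67 and 55 bases before the start, that of NFKBIA 81 and that of the upstream NFKB1 start 49 bases before it. A match is a description of letters and was not tested as a binding site.

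**Figure D1:**
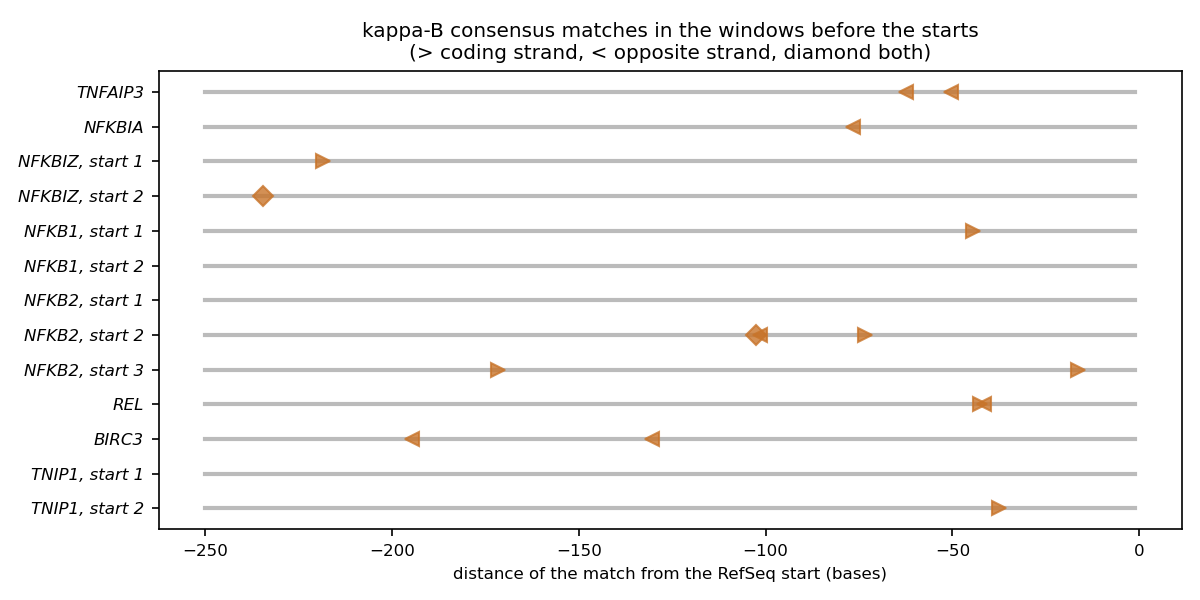
Matches to the kappa-B consensus (symbols) in the windows of 250 bases before 13 RefSeq starts of 8 genes, by distance from the start in bases. Arrowheads give the strand and diamonds stand for both strands. In 3 windows (the downstream start of NFKB1, the first of NFKB2 and the first listed of TNIP1) there is no symbol.

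Each gene was measured by 1 probe that is present on all 30 arrays and was well above background on all of them. The dimmest were those of NFKBIZ, at 25.8 to 270 intensity units, and TNFAIP3, at 53.2 to 707. That of NFKBIA lay at 4950 to 31019. REL has 1 more probe, on the design of a single array, which enters no comparison. The probes are placed on hg19 as chromosome 4 from 103537856 to 103537915 (NFKB1), chromosome 2 from 61149596 to 61149655 (REL) and chromosome 19 from 45541385 to 45541444 (RELB). The probe of NFKB2 spans 177 bases of chromosome 10, from 104161053 to 104161229, more than its own length of 60. Those of the IkB genes lie on chromosome 14 from 35870788 to 35870847 (NFKBIA), chromosome 6 from 44226558 to 44226617 (NFKBIE) and chromosome 3 from 101578904 to 101578963 (NFKBIZ). TNFAIP3 is measured on chromosome 6 from 138203679 to 138203738, TNIP1 on chromosome 5 from 150409766 to 150409825 and BIRC3 on chromosome 11 from 102208356 to 102208415. Which exon or untranslated region each probe lies in was not analysed here. Values below are log2 spot intensities minus the 75th percentile of the array, so that 0 is the 75th percentile of the probes common to both array designs, and they are compared only within a probe.

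Features of the hybridisation touch every result. The 75th percentile lay between 578 and 2111 intensity units, and the share of probes well above background from 44.7% to 59.3%. Both lowest values were on arrays of 6h50min. Replicate 1 of pollen at 55 min was hybridised to a different array design, alone on its slide and with its own scan date. All 15 air arrays lay in column 2 or 4 of their slide and all 15 pollen arrays in column 1 or 3, so that condition and column cannot be told apart. The 6h50min arrays fill a slide of their own with its own scan date. A change to or from 6h50min and a change of slide or scan date thus cannot be told apart. In contrast, 1 of the 5 slides holds all arrays of 24 h and 1 array of each 2h25min group.

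Over the 10 groups the genes reached their highest mean at different times, in each case with pollen. TNFAIP3, NFKBIA and NFKBIZ were highest at 55 min, NFKB1, REL, NFKBIE, TNIP1 and BIRC3 at 2h25min, and RELB and NFKB2 at 6h50min. The highest group stood clear of the arrays of the group with the next highest mean for TNFAIP3, NFKBIA, NFKB1 and RELB. It overlapped with that group for the other 6. For TNFAIP3 and NFKBIA it still overlapped with air at 55 min, whose highest array stood at -1.42 and 4.24. For RELB it overlapped with pollen at 2h25min, whose highest array stood at 3.96. The lowest mean was that of air at 24 h for 5 genes, namely NFKBIA, NFKBIZ, NFKB1, RELB and BIRC3. The spread between highest and lowest group mean ran from 0.38 for TNIP1 to 2.25 for TNFAIP3.

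**Figure D2:**
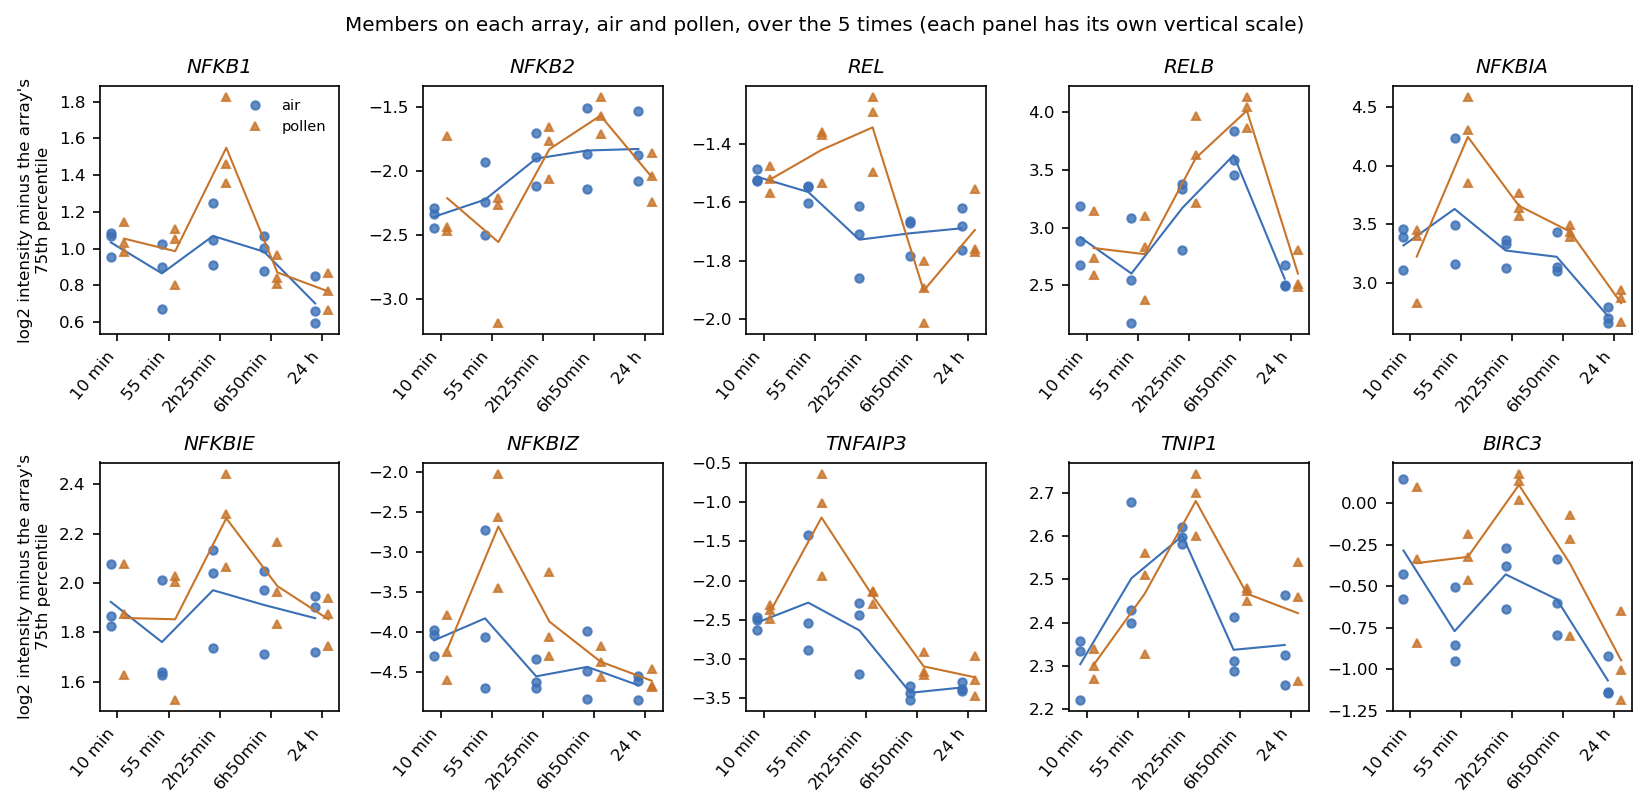
Log2 intensity minus the 75th percentile of the array for each gene on all 30 arrays, by time, with air as circles and pollen as triangles and lines through the group means (n = 3), each panel on its own vertical scale. TNFAIP3, NFKBIA and NFKBIZ peak with pollen at 55 min, and 1 of their 3 air arrays at 55 min lies near the pollen arrays.

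Pollen was first compared with air at each time. A gene passed the test where its limma p, adjusted over all 32100 probes tested, was under 0.05 and its change was at least 1.1-fold. The SE, interval and p of each difference rest on a spread pooled over all 10 groups. At each of the 5 times 0 of the 10 genes passed. The background was low as well, with 0% of all probes called at 10 min, 0.00312% at 55 min, 0.0343% at 2h25min, 0.0436% at 6h50min and 0.00312% at 24 h. At an unadjusted p under 0.05, 3 of the genes were higher with pollen at 55 min (1.52% of all probes) and 3 at 2h25min (1.51%). The count was 0 at 10 min (1.42%), 6h50min (5.04%) and 24 h (2.56%), and 1 gene was lower at 6h50min (2.4%). The median log2 difference of the genes was -0.04 at 10 min, 0.16 at 55 min, 0.41 at 2h25min, 0.17 at 6h50min and 0.06 at 24 h, against medians between -0.03 and 0.01 over all probes. At 2h25min the difference was above 0 for all 10 genes and for 41.6% of all probes, with NFKB2 at -0.03 without air replicate 2 and at -0.012 without pollen replicate 3. At 10 min the differences ran from -0.11 to 0.145 and at 24 h from -0.22 to 0.13. Arrays of the 2 conditions did not overlap, with pollen the higher, for 2 genes at 55 min (4.73% of all probes), 5 at 2h25min (2.85%), 3 at 6h50min (6.51%) and 0 at 10 min (3.85%) and 24 h (5.33%).

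**Figure D3:**
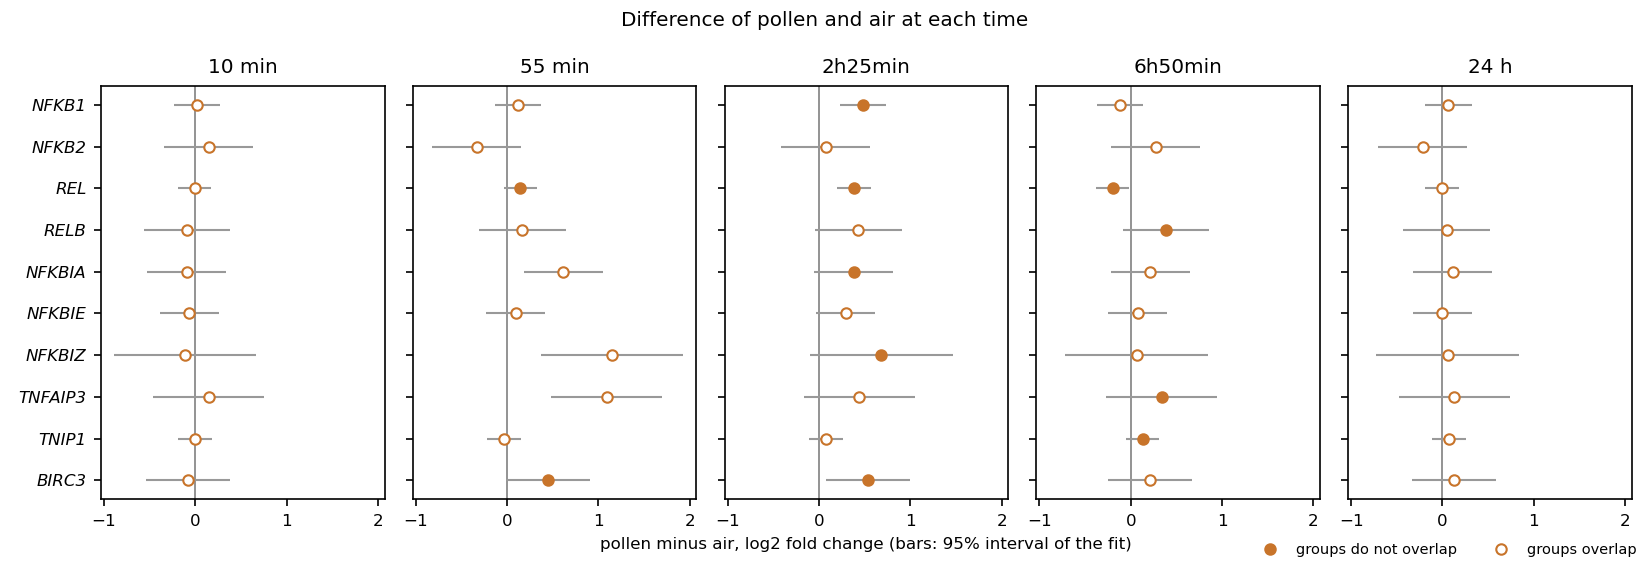
Log2 fold change of pollen over air for the 10 genes at each time, with the 95% interval of the limma fit over all arrays (n = 3 per group). Filled points mark genes whose 3 air and 3 pollen arrays do not overlap. At 2h25min all 10 points lie to the right of 0, and at 10 min and 24 h every interval holds 0.

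NFKB1 encodes p105, the precursor of the p50 subunit. At 2h25min its values were 1.25, 0.91 and 1.05 on the air arrays and 1.82, 1.36 and 1.46 on the pollen arrays. Every pollen array lay above every air array. The log2 fold change was 0.48 ± 0.12 (SE, n = 3, 1.40-fold, 95% interval 0.23 to 0.73), with a limma adjusted p of 0.471 and an unadjusted p of 0.000689. Arrays with a shared replicate number deviated together at 2h25min. They also lay in neighbouring columns of a slide, so that pairing and position cannot be told apart. With that number as a block NFKB1 passed, at a limma adjusted p of 0.0169, where 42 of 32100 probes passed as higher and 2 as lower. It was higher with pollen in 3 of 3 pairs by 0.57, 0.45 and 0.42 (12.9% of all probes were higher in all 3). Within the slide that held 2 arrays of each group the difference was 0.51. At 55 min it was 0.12, at 6h50min -0.11, and these groups overlapped.

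REL encodes c-Rel, a subunit best known from lymphocytes. On the air arrays of 2h25min it stood at -1.71, -1.86 and -1.61, and on the pollen arrays at -1.24, -1.50 and -1.29. The groups did not overlap, and the log2 fold change of 0.39 ± 0.09 (SE, n = 3, 1.31-fold, 95% interval 0.20 to 0.57) had the smallest unadjusted p of all 10 genes, 0.000243, with a limma adjusted p of 0.236. With the replicate block the adjusted p was 0.0599.

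At 55 min the values of REL were -1.60, -1.55 and -1.54 in air and -1.37, -1.53 and -1.36 with pollen, which do not overlap, although the second pollen array lies only just above the highest air array. This difference of 0.14 turned negative, to between -0.70 and -0.27, under quantile normalization of all probes, with the percentile of each array's own probes, with normexp and in the deposited table. The median over all probes was then -0.53, -0.37, -0.27 and -0.24. With quantile normalization over the probes on both designs, chosen after seeing the data, REL differed by 0.17, beside a median of 0.02. At 6h50min the order was turned, with -1.66, -1.67 and -1.78 in air and -1.80, -1.89 and -2.01 with pollen. All 3 pollen arrays were below all air arrays, the only such case among the 10 genes (5.21% of all probes), and the log2 fold change was -0.20 ± 0.09 (SE, n = 3, adjusted p = 0.618 by limma).

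RELB, the partner of p52 in the alternative pathway, had at 6h50min values of 3.83, 3.59 and 3.46 in air and 3.86, 4.04 and 4.13 with pollen. The lowest pollen array exceeded the highest air array by little, and the log2 fold change was 0.39 ± 0.23 (SE, n = 3, adjusted p = 0.814 by limma). At 2h25min the difference was 0.43, present in 3 of 3 pairs (12.9% of all probes), with overlapping groups. NFKB2, the precursor gene of p52, had differences no larger than 0.27 and no lower than -0.33, and overlapping groups at every time. At 55 min it differed by -0.33, at -3.18, -2.26 and -2.21 against -2.50, -2.24 and -1.93 in air, and the lowest value is that of the array of the other design, where the probe is printed on 10 spots with an SD of 0.16.

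NFKBIA encodes IkB-alpha, the inhibitor that is destroyed and made anew in each round of NF-kB signalling. At 55 min it stood at 3.16, 3.49 and 4.24 in air and at 3.85, 4.31 and 4.58 with pollen. The third air array lies between the pollen arrays, so the groups overlapped. The log2 fold change was 0.62 ± 0.21 (SE, n = 3, 1.53-fold, 95% interval 0.18 to 1.05), with an adjusted p of 0.92 by limma and an unadjusted p of 0.00747. It was 0.38 without air replicate 1 and 0.92 without air replicate 3. This probe is printed on 10 spots per array, whose SD within an array had a median of 0.04 on the log2 scale, beside an SD of 0.55 between the 3 air arrays.

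At 2h25min NFKBIA was at 3.37, 3.13 and 3.33 in air and 3.77, 3.57 and 3.64 with pollen. Here the groups did not overlap, with a log2 fold change of 0.38 ± 0.21 (SE, n = 3, adjusted p = 1 by limma). By 6h50min and 24 h the differences were 0.22 and 0.11 with overlapping arrays.

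NFKBIZ encodes IkB-zeta, a nuclear IkB protein that acts as a co-regulator of late NF-kB targets. Its 55 min values were -4.70, -4.06 and -2.72 in air and -3.45, -2.56 and -2.02 with pollen. Again the third air array reached into the pollen range. The log2 fold change was 1.15 ± 0.38 (SE, n = 3, 2.22-fold, 95% interval 0.37 to 1.93), the largest among the 10 genes at any time, with an adjusted p of 0.92 by limma and an unadjusted p of 0.00576. It was 0.71 without air replicate 1 and 1.70 without air replicate 3.

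At 2h25min NFKBIZ stood at -4.34, -4.70 and -4.62 in air and -3.25, -4.29 and -4.06 with pollen, without overlap, the difference being 0.68 ± 0.38 (SE, n = 3, adjusted p = 1 by limma) and 0.375 without pollen replicate 1. With normexp background correction the difference of this dim probe was 0.41, beside a median of -0.002 over all probes. NFKBIE, the gene of IkB-epsilon, differed by 0.29 at 2h25min, higher in 3 of 3 pairs (12.9% of all probes) by 0.31, 0.33 and 0.24, with overlapping groups and an adjusted p of 1 by limma. At the other times its differences lay between -0.06 and 0.09.

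TNFAIP3 encodes A20, a ubiquitin-editing enzyme that ends NF-kB signalling. At 55 min it stood at -2.89, -2.54 and -1.42 in air and at -1.94, -1.01 and -0.63 with pollen. The third air array lies above the first pollen array. The log2 fold change was 1.09 ± 0.29 (SE, n = 3, 2.13-fold, 95% interval 0.48 to 1.70), with an adjusted p of 0.92 by limma and an unadjusted p of 0.00121. Without the third air array it was 1.52 and passed (adjusted p = 0.027 by limma), and without any other array of 55 min it lay between 0.79 and 1.46 and did not pass.

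At 2h25min TNFAIP3 was at -2.44, -3.19 and -2.28 in air and -2.15, -2.13 and -2.31 with pollen. The groups overlapped, with a log2 fold change of 0.44 ± 0.29 (SE, n = 3, adjusted p = 1 by limma), which was 0.17 without air replicate 2. At 6h50min TNFAIP3 was at -3.35, -3.44 and -3.53 in air and -2.92, -3.21 and -3.18 with pollen, which do not overlap, with a log2 fold change of 0.34 ± 0.29 (SE, n = 3, adjusted p = 0.941 by limma). TNIP1, whose product ABIN1 binds A20, had differences from -0.04 to 0.13. Its 6h50min arrays, at 2.29, 2.41 and 2.31 in air and 2.47, 2.45 and 2.48 with pollen, did not overlap (log2 fold change 0.13 ± 0.09, SE, n = 3, adjusted p = 0.875 by limma).

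BIRC3 encodes cIAP2, a ubiquitin ligase at the TNF receptor complex. It stood at -0.85, -0.95 and -0.51 in air and -0.18, -0.46 and -0.32 with pollen at 55 min, and at -0.38, -0.64 and -0.27 against 0.13, 0.02 and 0.18 at 2h25min. At both times every pollen array lay above every air array. The log2 fold changes of BIRC3 were 0.45 ± 0.22 (SE, n = 3) at 55 min and 0.54 ± 0.22 (SE, n = 3, 1.45-fold, 95% interval 0.08 to 1.00) at 2h25min, with limma adjusted p-values of 0.92 and 1. On the slide with 2 arrays of each group the 2h25min difference was 0.58. The 55 min difference turned negative under quantile normalization (-0.24), with normexp (-0.16) and in the deposited table (-0.013). The median over all probes was then -0.53, -0.27 and -0.24. With quantile normalization over the probes on both designs the 55 min difference of BIRC3 was 0.47, beside a median of 0.02.

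**Figure D4:**
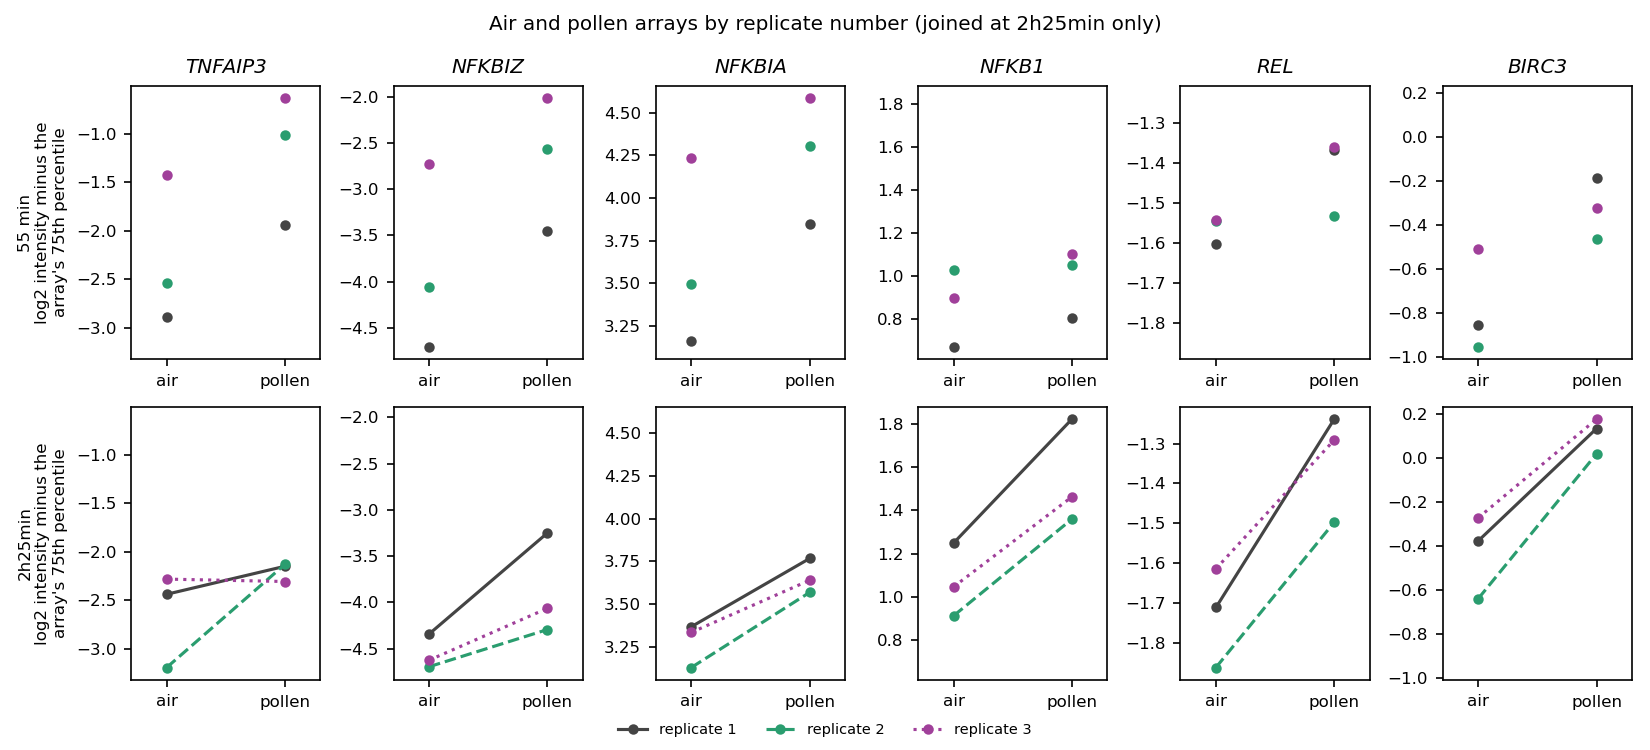
Log2 intensity minus the 75th percentile of the array for 6 genes at 55 min (upper row) and 2h25min (lower row), with lines joining same-numbered arrays at 2h25min, where the numbers paired them, and none at 55 min. At 55 min 1 air array of TNFAIP3, NFKBIZ and NFKBIA lies within the pollen range. At 2h25min all 3 lines rise from air to pollen in every panel except that of TNFAIP3 (12.9% of all probes were higher in all 3 pairs).

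The spread at 55 min was shared by TNFAIP3, NFKBIZ and NFKBIA. Their SDs were 0.77, 1.01 and 0.55 in air and 0.67, 0.72 and 0.37 with pollen. The medians of the SDs over the 10 groups were 0.13, 0.30 and 0.16. The SEs, intervals and p-values above rest on the pooled spread, so for these genes at 55 min they are too tight. In a fit of the 55 min arrays alone 0 of the 10 genes passed, the lowest limma adjusted p being 0.983. The array with the lowest value was replicate 1, and that with the highest replicate 3, for each of the 3 genes in air and in pollen. Over all probes the numbers did not pair the arrays at this time, with r of 0.19, -0.12 and 0.348 between the deviations of same-numbered arrays. The 55 min arrays were spread over 3 slides, with 2 of each group on the same one, and within it the differences were 1.16 for TNFAIP3, 1.099 for NFKBIZ and 0.58 for NFKBIA. With limma's array weights, which give less weight to arrays that deviate, all 3 passed at 55 min with log2 fold changes of 1.49, 1.49 and 0.80. Of 32100 probes 173 passed as higher and 58 as lower under this setting. The second air and second pollen array then weighed 6.32 and 3.34 and the other 4 between 0.117 and 0.975, so that these values rest mainly on 1 pair. Where the array of the other design was scaled with its own probes, the 3 values shrank along with those of all probes. Under quantile normalization of all probes, for example, they were 0.26, 0.41 and 0.31, beside a median of -0.53 over all probes at this time. Over the 19 settings and arrays left out, 6 of the 10 genes changed sign at 55 min and 1 at 2h25min, and TNFAIP3, NFKBIZ and NFKBIA stayed above 0. With quantile normalization over the probes on both designs, an alternative added after the data had been seen, they were 1.18, 1.31 and 0.58, beside a median of 0.02.

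Whether the effect of pollen changed from a time to the next was tested by interaction contrasts. By limma 0 of the 10 genes passed in any of the 4 contrasts, where 0% of all probes did, or 0.00312% from 2h25min to 6h50min. At an unadjusted p under 0.05 there were 3 genes from 10 to 55 min (1.02% of all probes higher), 1 from 55 min to 2h25min (0.704% higher), 2 from 2h25min to 6h50min (2.03% lower) and 0 from 6h50min to 24 h. From 10 to 55 min the log2 fold change of pollen over air differed by 0.95 for TNFAIP3, 0.71 for NFKBIA and 1.26 for NFKBIZ, each with an adjusted p of 0.945. From 2h25min to 6h50min that on REL changed by -0.58 ± 0.13 (SE, adjusted p = 0.374) and that on NFKB1 by -0.59 ± 0.17 (SE, adjusted p = 0.747). With array weights, and also without air replicate 3 of 6h50min, REL passed this last contrast. With the weights 6 of 32100 probes passed it as lower and 34 as higher.

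The genes were then followed over time within each condition. From 10 to 55 min 0 of the 10 genes passed in air by limma (0.187% of all probes), where at an unadjusted p under 0.05 TNIP1 was higher by 0.20 (6.66% of all probes higher) and BIRC3 differed by -0.49 (4.14% lower). With pollen 1 gene rose (0.421% of all probes). NFKBIA rose with pollen from 2.82, 3.45 and 3.40 at 10 min to the 55 min values above, by 1.02 ± 0.21 (SE, n = 3, 2.03-fold, adjusted p = 0.0194 by limma). Its level in air differed by 0.31 over the same interval. NFKBIZ, at -4.60, -4.25 and -3.79 with pollen at 10 min, differed by 1.54, and TNFAIP3, at -2.49, -2.31 and -2.38, by 1.20, each with an adjusted p of 0.0539, and for all 3 genes the arrays were clear of those at 10 min (6.03% of all probes). The call of NFKBIA was lost without pollen replicate 1 of 10 min (adjusted p = 0.12) and without pollen replicate 2 of 55 min (adjusted p = 0.0525), and without pollen replicate 1 of 55 min, the array of the other design, all 3 genes passed.

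Between 55 min and 2h25min 0 of the 10 genes passed in either condition by limma, with 0.0156% of all probes in air and 0.202% with pollen. At an unadjusted p under 0.05 RELB was higher in air, by 0.57 (2.41% of all probes higher), and with pollen 5 genes were higher and 3 lower (3.67% and 4.75%). With pollen TNFAIP3, NFKBIZ and NFKBIA differed by -1.003, -1.19 and -0.59, whereas RELB, NFKB2, NFKB1, NFKBIE and TNIP1 differed by 0.83, 0.72, 0.56, 0.41 and 0.21. TNFAIP3, NFKBIZ and NFKBIA thus stood lower, and 3 of the 4 subunit genes higher, at the later time, with adjusted p-values from 0.0594 (NFKB1) to 0.52 (TNIP1). With array weights 5 of the 10 passed, TNFAIP3, NFKBIA and NFKBIZ lower and NFKB1 and RELB higher. Of 32100 probes 329 then passed as lower and 218 as higher.

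A comparison of 2h25min with 24 h, which have a slide partly in common, was added after the data had been seen. From 2h25min to 24 h 7 of the 10 genes fell with pollen and 4 in air, against 11.8% and 14.9% of all probes. With pollen BIRC3 fell from 0.13, 0.02 and 0.18 to -1.01, -1.18 and -0.65, by 1.06 ± 0.22 (SE, n = 3, adjusted p = 0.00129). TNFAIP3 fell to -2.97, -3.47 and -3.28, by 1.04 (adjusted p = 0.0123). RELB fell from 3.96, 3.21 and 3.63 to 2.51, 2.49 and 2.81, by 0.999 (adjusted p = 0.00273). All arrays of 24 h thus lay below all arrays of 2h25min for these genes. NFKBIA fell to 2.87, 2.67 and 2.94, by 0.83 (adjusted p = 0.00561), and NFKB1 to 0.77, 0.67 and 0.86, by 0.78 (adjusted p = 7.71e-05). The changes of the last pair of genes were smaller, with REL falling to -1.76, -1.77 and -1.55, by 0.35 (adjusted p = 0.0055), and TNIP1 from 2.60, 2.74 and 2.70 to 2.46, 2.54 and 2.27, by 0.26 (adjusted p = 0.0384). Arrays of the 2 times did not overlap for these 7 (18.2% of all probes lower) nor for NFKBIE and NFKBIZ, which differed by -0.41 and -0.74 and did not pass.

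In air over the same interval, BIRC3 fell to -1.14, -1.14 and -0.92, by 0.64, and RELB from 3.34, 2.80 and 3.37 to 2.50, 2.50 and 2.68, by 0.61. NFKB1 fell to 0.66, 0.59 and 0.85, by 0.37, and TNIP1 from 2.60, 2.58 and 2.62 to 2.46, 2.33 and 2.26, by 0.25. The adjusted p-values lay between 0.0275 and 0.0499. These 4 genes fell in both conditions, and whether the changes differed between the conditions over this interval was not tested. In air 0 passed without replicate 1 or 3 of 2h25min or replicate 2 of 24 h, 1 without replicate 1 of 24 h and 2 without replicate 3 of 24 h. The median of the genes was -0.76 with pollen and -0.31 in air, and over all probes it was -0.02 and -0.07. With the slide as a term 6 genes passed as lower with pollen and 2 in air, where 2745 and 3806 of 32100 probes did. Under quantile normalization of all probes 0 passed in either, where 871 and 1325 probes passed as lower. Over the probes on both designs 8 and 5 passed as lower, where 3084 and 3622 of 23928 probes did.

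**Figure D5:**
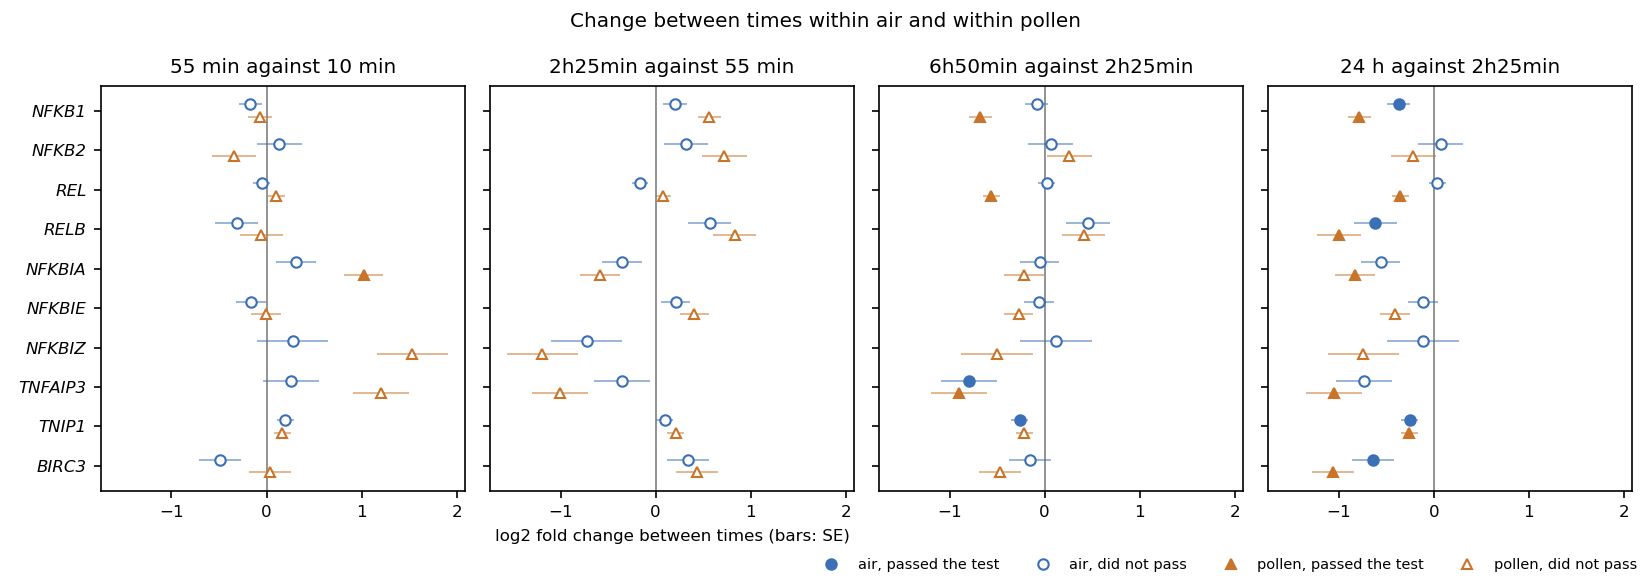
Log2 fold change between times for the 10 genes in air (circles) and with pollen (triangles), with the SE of the limma fit (n = 3 per group). Filled symbols passed the test. The symbols of TNFAIP3, NFKBIZ and NFKBIA lie on the right at 55 min against 10 min and on the left at 2h25min against 55 min, and with pollen 7 symbols at 24 h against 2h25min are filled.

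The slide of 6h50min held no other time. From 2h25min to 6h50min, REL fell with pollen by 0.56 (adjusted p = 0.000103), NFKB1, to 0.96, 0.81 and 0.84, by 0.68 (adjusted p = 0.00034) and TNFAIP3 by 0.90 (adjusted p = 0.0234), 3 of 10 genes against 19.9% of all probes. In air TNFAIP3 fell from the 2h25min to the 6h50min values above by 0.80 and TNIP1 by 0.26 (adjusted p = 0.0414 and 0.0277), 2 of 10 against 22.6%. Leaving out an air array kept 1 call where it was replicate 2 of either time and 0 otherwise. From 6h50min to 24 h, RELB fell with pollen from 3.86, 4.04 and 4.13 to 2.51, 2.49 and 2.81, by 1.41 ± 0.23 (SE, n = 3, adjusted p = 8.16e-05), and in air to 2.50, 2.50 and 2.68, by 1.07 ± 0.23 (SE, n = 3, adjusted p = 0.000905). RELB was the only gene to pass in air here (15.9% of all probes fell), and with pollen NFKBIA fell as well, from 3.39, 3.43 and 3.49, by 0.61, and BIRC3 from -0.80, -0.22 and -0.07, by 0.58 (14.5% of all probes fell). Of the 3 genes 1 passed without pollen replicate 2 or 3 of 6h50min or replicate 2 of 24 h, and in air 2 passed without replicate 3 of 24 h. The median of all probes moved by -0.15 in air between 2h25min and 6h50min and by 0.14 between 6h50min and 24 h.

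Across the 30 arrays NFKBIA and NFKBIZ had a Pearson r of 0.90, TNFAIP3 and NFKBIZ 0.86 and TNFAIP3 and NFKBIA 0.86, the highest of the 45 pairs. NFKB2 and REL had the lowest, at -0.45. These values describe arrays that share groups and slides. The mean of the 10 genes, each centred on its own mean, was highest with pollen at 2h25min, 0.38 ± 0.14 (SD, n = 3), and 0.33 ± 0.29 (SD, n = 3) with pollen at 55 min, and lowest at 24 h, -0.33 ± 0.04 (SD, n = 3) in air and -0.29 ± 0.10 (SD, n = 3) with pollen. The genes were centred but not scaled, so those with wider ranges of group means weigh more in this mean. These ranges were 2.25 for TNFAIP3, 1.99 for NFKBIZ, 1.53 for NFKBIA and 1.45 for RELB, against 0.38 for TNIP1. Among 19394 probes of other genes, those most like this mean over the 30 arrays measured CXCL2 (r = 0.91), CXCL3 (0.90), CCL20 (0.84), IL1B (0.84) and CXCL1 (0.83). Only the most similar probe of each gene was kept. The probes of CXCL2 and CXCL1 with these values are not their brightest.

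Of 81 further genes of the pathway and its targets, 76 were tested and 0 passed between pollen and air at any time by limma. At an unadjusted p under 0.05, 0 were higher at 10 min, 8 at 55 min, 17 at 2h25min, 12 at 6h50min and 2 at 24 h, where 1.42%, 1.52%, 1.51%, 5.04% and 2.56% of all probes were. The medians were -0.01, 0.07, 0.11, 0.12 and 0.04. At each of 10 min, 55 min and 6h50min 1 gene was lower, a different one each time, where 0.405%, 3.56% and 2.4% of all probes were. Of the 21 target genes tested, 10 were among those at 2h25min, with a median of 0.33. At 55 min and at 6h50min 5 were, with medians of 0.28 and 0.35, and at 10 min and 24 h 0 were. The largest difference among the targets was that of CXCL2, a chemokine for neutrophils, 1.61 at 55 min by its brightest probe (adjusted p = 0.92), and among receptors and ligands that of IL1B, a ligand that activates NF-kB, 1.19 at 2h25min (adjusted p = 0.0727). Among the other subunits and IkB proteins it was that of BCL3, a nuclear IkB protein, 0.84 at 2h25min (adjusted p = 0.229). TNIP2 differed most among the other inhibitors, by 0.59 at 6h50min (adjusted p = 0.246). Among the kinases IKBKE differed most, by 0.51 at 6h50min (adjusted p = 0.927), and among the adaptors TRAF1, by 0.46 at 24 h (adjusted p = 1).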

How the data were processed

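Total RNA of 30 cultures was hybridised to one-colour Agilent arrays. The authors extracted spots with Agilent Feature Extraction 11.0.1.1 (submitters' processing notes) and deposited one file of intensity values per array. Processed spot intensities, already background-corrected and detrended by the authors' scanner software, were averaged over the spots of a probe. The averages were taken to log2 and set against the 75th percentile over the 33873 probes on both array designs. Of the deposited log2 value table, used as an alternative, the exact scale and centring are unknown. Of its 30 columns 24 matched their own array best and 6, all of 24 h, another array of their group. There were 0 columns without a condition.

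Probes that the scanner software marked as well above background in every array of any group entered limma 3.58.1 (R 4.3.3, package data.table at version 1.17.8) in a single fit of 10 groups, with Benjamini-Hochberg adjustment over 32100 probes, and passed where the adjusted p was below 0.05 and the fold change 1.1 or more. The fit was tested on simulated data. A gene of the further lists stood by its brightest probe, and in the comparison with the members' mean by its most similar one. The rule was to describe all 10 genes in every comparison, sample by sample where they passed or groups did not overlap, with, from each further list, the gene of the largest change. Differences between times that did not pass are given mostly as counts or fold changes. The genes and lists were chosen with earlier results of these data known.

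Replicate numbers were taken as pairing air and pollen where the deviations of every same-numbered pair from the group means correlated above 0.1, which held at 10 min (r from 0.296 to 0.346), 2h25min (0.405 to 0.516) and 24 h (0.22 to 0.494), and not at 55 min and 6h50min. The alternatives were other normalizations, normexp background correction, the deposited log2 table, no filter, array weights, slide and replicate blocks, dim array areas left out, separate fits per time and each array left out in turn. One of the leukocyte markers is not reported here.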

Additional observations from a re-analysis of the deposited data

How the results depend on the processing

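Between pollen and air 0 of the 10 genes passed at 10 min, 6h50min and 24 h under any of the settings run. At 55 min 3 passed with array weights and 0 to 1 with each array left out in turn, and at 2h25min 1 (NFKB1) passed with the replicate number as a block, where 42 of 32100 probes passed as higher and 2 as lower. That block pairs the air and pollen arrays of a time. Changes between times were fitted with another block, the replicate number shared over all times, and whether it pairs arrays across times was not tested. It gave 2 genes higher for pollen at 55 min against 10 min (NFKBIA and NFKBIZ), where 150 of 32100 probes were higher. For air at 24 h against 6h50min it gave 2 lower (NFKBIA and RELB), where 5281 probes were lower. The change of the pollen effect from 2h25min to 6h50min had 1 gene (REL) with array weights and 0 to 1 with an array left out.

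Counts of genes that changed over time moved more. For air at 6h50min against 2h25min, 2 in the main setting, the count was 0 with quantile normalization, each array's own percentile and no filter, and 1 with normexp, the deposited table and quantile normalization over the probes on both designs. Of 32100 probes 7239 fell in the main setting. In the other settings, in the order given, 1256, 2813, 6268 (of 58201), 1342, 2054 and 2832 (of 23928) fell. For air at 24 h against 2h25min, 4 in the main setting, it was 0 with quantile normalization, own percentile, normexp, the deposited table and no filter, and 2 with slide as a term. Over all probes 4788 fell in the main setting, then 1325, 2011, 1499, 2184, 3873 (of 58201) and 3806. For pollen at 55 min against 10 min, 1 in the main setting, it was 0 with quantile normalization, own percentile, normexp, the deposited table and slide as a term, and 3 with array weights and with quantile normalization over the probes on both designs. Over all probes 135 rose in the main setting, and 24, 44, 24, 59 and 1 where the count was 0. Over the probes on both designs 158 of 23928 rose. For pollen at 6h50min against 2h25min, 3 in the main setting, it was 0 with quantile normalization, own percentile, normexp and the deposited table, and 5 with array weights. Over all probes 6383 fell in the main setting, and 1360, 2673, 1140 and 1877 where the count was 0. For pollen at 24 h against 6h50min, 3 in the main setting, it was 1 with quantile normalization, own percentile, normexp, the deposited table and no filter (RELB each time). Over all probes 4640 fell in the main setting, then 1622, 2326, 2030, 2821 and 3732 (of 58201). For pollen at 24 h against 2h25min, 7 in the main setting, it was 0 with quantile normalization, 1 with own percentile, 2 with normexp and 4 with the deposited table. Over all probes 3786 fell in the main setting, then 871, 1488, 997 and 1595. For pollen at 2h25min against 55 min, 0 in the main setting, it was 5 with array weights and 1 with slide as a term and with quantile normalization over the probes on both designs. With slide as a term 40 probes were higher and 16 lower, and over the probes on both designs 73 and 16 of 23928. Array weights gave 1 gene lower for air at 55 min against 10 min (BIRC3) and 4 lower for air at 24 h against 6h50min. Of 32100 probes 1329 and 6804 were then lower. With these weights 825 probes were higher for pollen at 55 min against 10 min, and 9083 lower for pollen at 6h50min against 2h25min. The cause was not tested.

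With each array left out in turn the counts were 0 to 1 (air, 6h50min against 2h25min), 0 to 4 (air, 24 h against 2h25min), 1 to 2 (air, 24 h against 6h50min), 0 to 3 (pollen, 55 min against 10 min), 2 to 3 (pollen, 6h50min against 2h25min), 1 to 3 (pollen, 24 h against 6h50min) and 6 to 7 (pollen, 24 h against 2h25min). Followed singly were 35 differences, the 21 that passed and 14 between pollen and air with an unadjusted p under 0.05 or no overlap. Of these REL and BIRC3 at 55 min changed sign, REL to -0.70 with quantile normalization, -0.27 with own percentile, -0.46 with normexp and -0.37 in the deposited table, and BIRC3 to -0.24, -0.16 and -0.013 with quantile normalization, normexp and the deposited table. In these settings the 55 min median over all probes lay between -0.53 and -0.24. Of the 10 genes, with the smaller differences included, 9 changed sign in some setting at 10 min, 6 at 55 min, 1 at 2h25min, 2 at 6h50min and 6 at 24 h. Of 32100 probes, 3177 rose and 7239 fell in air from 2h25min to 6h50min. With quantile normalization over the probes on both designs, which also tests fewer probes (23928), 3204 rose and 2832 fell. In air from 6h50min to 24 h these were 7917 and 5095, and 4354 and 4707 over the fewer probes. With pollen they were 3561 and 6383, and 3391 and 3095, in the earlier interval, and 6982 and 4640, and 4050 and 4200, in the later. Averaging the tested probes of a gene changes nothing, since each has 1, and a slide term could not be fitted for changes within a condition to or from 6h50min. Quantile normalization over the probes on both designs was chosen after seeing the data.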
